A study of Mus musculus with 2 samples.

Results

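The genes described here are the core of the LIF signalling route: the cytokine gene Lif, the receptor genes Lifr, Il6st and Osmr, the kinase genes Jak1 and Jak2, the transcription factor gene Stat3, and the STAT3 target genes Socs3, Pim1 and Pim3. They were chosen by name, and all 10 were found, each as 1 locus per library, among 23320 symbols present in both libraries. Primordial germ cells (PGCs) were sorted for GFP from the genital ridges of male and female E13.5 embryos of MCH mothers and Oct4-deltaPE-GFP fathers. The PGCs were infected at an MOI of 5 with a control lentivirus or one carrying the Klf9 coding region in the CSII-EF vector (Klf9-OE), and were cultured for 1 day on gelatin. Both groups thus carried the reporter transgene and a lentivirus. LIF is part of the study's EG medium, while bFGF is named as present by the sample labels and as absent by the paper. Which of the study's control vectors was used for these libraries, and whether the sexes were pooled, is not given in the sources used here. Each condition is 1 library, so no difference below has a replicate check and none was tested.

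LIF binds the LIF receptor chain, which pairs with gp130, the product of Il6st. gp130 also serves the receptors for oncostatin M, IL-6, IL-11 and CNTF. The kinases JAK1 and JAK2 on the receptor tails phosphorylate STAT3, which enters the nucleus and switches on targets such as Socs3, whose product shuts the signal off. In mouse embryonic stem cells this route sustains self-renewal, and LIF is used when PGCs are turned into embryonic germ cells.

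Promoter windows of the genes whose levels stood apart between the libraries are shown first, with that of Socs3, because KLF9 is a zinc-finger factor known to bind GC-rich boxes and STAT3 is known to bind the palindrome TTCNNNGAA. They are the 250 bases before the RefSeq start site on GRCm38.p6, 5′ to 3′ on the strand of the gene. Capitals mark the GC box GGGCGG on either strand, except in Socs3, where they mark the palindrome and the GC box is left in lower case. The windows are Pim1 (chr17:29490535-29490784, forward strand), Pim3 (chr15:88861944-88862193, forward), Lifr (chr15:7129322-7129571, forward), Il6st (chr13:112463820-112464069, forward), Stat3 (chr11:100939541-100939790, reverse) and Socs3 (chr11:117969367-117969616, reverse).
Pim1: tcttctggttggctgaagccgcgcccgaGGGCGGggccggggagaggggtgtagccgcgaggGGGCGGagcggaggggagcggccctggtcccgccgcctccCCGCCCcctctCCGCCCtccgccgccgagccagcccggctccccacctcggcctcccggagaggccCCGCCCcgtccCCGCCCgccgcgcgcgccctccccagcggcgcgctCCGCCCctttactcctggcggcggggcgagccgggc
Pim3: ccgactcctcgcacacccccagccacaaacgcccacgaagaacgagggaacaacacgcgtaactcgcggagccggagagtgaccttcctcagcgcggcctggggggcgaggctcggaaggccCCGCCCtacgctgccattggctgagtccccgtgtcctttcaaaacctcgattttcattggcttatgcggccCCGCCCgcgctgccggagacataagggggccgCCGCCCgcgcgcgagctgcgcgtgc
Lifr: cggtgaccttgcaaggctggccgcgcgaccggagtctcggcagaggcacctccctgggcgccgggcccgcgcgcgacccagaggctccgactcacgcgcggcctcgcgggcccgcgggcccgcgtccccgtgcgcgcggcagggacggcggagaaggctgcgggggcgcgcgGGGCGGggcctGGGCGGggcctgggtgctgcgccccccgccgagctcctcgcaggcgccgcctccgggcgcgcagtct
Il6st: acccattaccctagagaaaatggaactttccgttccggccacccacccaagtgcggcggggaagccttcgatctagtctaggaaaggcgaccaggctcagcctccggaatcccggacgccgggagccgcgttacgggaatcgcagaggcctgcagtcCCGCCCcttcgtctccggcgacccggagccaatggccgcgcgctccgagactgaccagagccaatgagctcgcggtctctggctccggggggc
Stat3: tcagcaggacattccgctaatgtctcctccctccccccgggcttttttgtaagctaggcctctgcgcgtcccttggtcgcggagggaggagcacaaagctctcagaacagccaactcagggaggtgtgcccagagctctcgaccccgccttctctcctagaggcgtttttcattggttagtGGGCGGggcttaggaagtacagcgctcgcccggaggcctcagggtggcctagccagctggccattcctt
Socs3: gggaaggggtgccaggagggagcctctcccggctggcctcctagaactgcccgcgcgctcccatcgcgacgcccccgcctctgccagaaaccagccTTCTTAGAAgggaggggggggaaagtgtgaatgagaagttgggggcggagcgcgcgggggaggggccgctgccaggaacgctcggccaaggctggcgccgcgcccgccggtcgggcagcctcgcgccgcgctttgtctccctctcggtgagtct

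The Pim1 window held 7 GC boxes, that of Pim3 held 3, that of Lifr held 2, and those of Il6st, Stat3 and Socs3 held 1 each. The members that did not stand apart carried them too, with 2 in Osmr, 2 in Jak2 and 1 in Jak1, and none in Lif. Lifr and Pim1 have a second RefSeq start whose window held none, so that 9 of 12 windows of the 10 genes held GGGCGG. The share was 32.7% of 32851 windows of all genes and 57.7% of the 11757 windows of expressed genes (RPKM of 1 or more in either library), and 1.85% of the latter held 6 or more copies, as did that of Pim1. TTCNNNGAA was found in 1 of the 12 windows, 154 bases before the Socs3 start, against 7.02% of all windows and 5.89% of those of expressed genes. Its stricter form TTCCNGGAA, a subset of the former, was in none of the 12, in 0.913% of all windows and in 1.01% of those of expressed genes. CACGCCC, another GC-rich element searched on both strands, was in the windows of Jak1 and Jak2, 2 of 12, against 7.55% of all windows and 13.7% of those of expressed genes. The second windows of Lifr and Pim1, and part of the Pim1 window shown above and of the Jak1 window, lie within the locus measured in control cells. A match of letters is a description and shows no binding.

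Expression is given as RPKM, which scales reads by transcript length and by library size, so that levels can be set side by side between genes. The range in parentheses is the Cufflinks 95% interval, which covers the error of estimation within a library and not the difference between cultures. Libraries are said to stand apart for a gene when these ranges do not overlap. The ratio is Klf9-OE over control, with an interval computed from the same ranges.

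The libraries differed in more than these genes. Klf9 itself measured 2.27 in control cells and 80.8 with Klf9-OE, where vector and endogenous reads are not separated. The germ cell markers Ddx4 and Dazl lay between 292 and 378 in both libraries. Of 9 germ cell markers, 7 were lower with Klf9-OE, 1 was higher, which was Dazl, and Ddx4 overlapped with a ratio of 0.975. The ratios of the 7 lower markers ran from 0.608 for Dppa3 to 0.859 for Mael. With the Klf9-OE ranges widened as described below, Dazl overlapped and the 7 stayed lower. The read numbers implied by the ranges of Ddx4, Dazl, Dppa3, Pou5f1 and Mael did not follow the values within 10%, allowing for depth. The ranges of these genes are thus less certain. The summed RPKM of all 9 germ cell markers was 1736 and 1463 (control first). Summed levels were 25.8 and 31.1 for 8 gonad somatic genes (3 higher, 1 lower), 13.6 and 17.8 for 5 mesenchyme genes (2 higher), 5.23 and 5.37 for 6 macrophage genes (1 higher, 1 lower) and 3.13 and 5.99 for 4 endothelial genes (1 higher, 1 lower). Lyz2, the lower macrophage gene, was listed at 0 with Klf9-OE, against 1.001 (0.581 to 1.42) in control cells. The higher macrophage gene was Csf1r, with a ratio of 3.85. Its levels were low, at 0.307 (0.196 to 0.417) in control cells and 1.18 (0.834 to 1.53) with Klf9-OE. Of the endothelial genes, Cdh5 was higher with a ratio of 2.55 and Tek was lower with a ratio of 0.597. Tek overlapped once widened, and also after the rescaling to the same sum described below. The implied read numbers of Csf1r and Cdh5 did not follow the values either. Emcn of endothelium was listed at 0 with Klf9-OE and at 0.0298 (0 to 0.133) in control cells. Lum of fibroblasts was listed at 0 in control cells and at 0.0318 (0 to 0.0769) with Klf9-OE. The ranges of Emcn and Lum overlapped. All 6 FGF-ERK targets were higher with Klf9-OE, and of 10 interferon response genes 4 were higher and 2 were lower. With ranges widened, 2 gonad somatic genes were still higher and 1 interferon response gene was still lower. Higher and lower here mean that the libraries stood apart. Of all genes above 0 in either library, 11.2% were higher and 14.4% were lower, and of expressed genes 14.8% and 20.2%. In bulk samples, fewer cells of a type and less RNA per cell cannot be told apart. The part of these differences in the results below was not tested.

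Across the 10 genes, Lifr was higher with Klf9-OE, Il6st, Stat3, Pim1 and Pim3 were lower, and the ranges of Lif, Osmr, Jak1, Jak2 and Socs3 overlapped. The differences were small. The greatest among those standing apart were a level 23.5% higher for Lifr and 20.3% lower for Pim1, and none of the 10 genes differed by 2-fold or by 1.5-fold. Of 12560 expressed genes, 3.93% were 2-fold higher or more and 3.79% were 2-fold lower or more.

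The 5 genes that stood apart, 1 higher and 4 lower, have to be read against all genes. Of 18737 genes above 0 in either library, 11.2% were higher and 14.4% were lower in this sense. The shares were 14.8% and 20.2% of the 12560 expressed genes, which include 9 of the 10 members, all but Lif. They were 14.9% and 23.9% of the 7051 genes that reached an RPKM of 10. The median log2 fold change of the 10 genes, with a pseudocount of 0.1, was -0.046, beside -0.015 over all genes above 0 and -0.033 over those that reached an RPKM of 10. Of the members, 5 lay above 0 and 5 below.

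Lif (chr11:4257568-4272514, coordinates on mm10 as in the control file throughout), the gene of the cytokine itself, was barely expressed. It measured 0.373 (0.251 to 0.495) in control cells and 0.375 (0.263 to 0.486) with Klf9-OE, and 13791 and 13950 genes, respectively, had a higher level. The ratio was 1.00 (0.645 to 1.56), which rests on about 37.2 and 45.1 reads, and a difference within this wide interval was not detectable at this depth. Osm, the oncostatin M gene 16.5 kb from Lif, was lower still, at 0.0213 and 0.0350.

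Lifr (chr15:7129572-7197489), whose product is the receptor chain that binds LIF, was the only member that stood apart with a higher level with Klf9-OE. It measured 8.44 (7.43 to 9.45) in control cells and 10.4 (9.79 to 11.0) with Klf9-OE, a ratio of 1.23 (1.08 to 1.41). Of expressed genes, 85.5% had a lower log2 fold change. The gene has 2 starts in the files and its transcripts were assembled separately in each library. The read numbers implied by its ranges, 279 and 1096, did not follow the values within 10% after allowing for depth, so its ranges are a less certain guide to precision. The same held, by a smaller margin, for Jak1 and Stat3.

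Osmr (chr15:6813577-6874313), which pairs with gp130 to bind oncostatin M, lies 255 kb from Lifr. It measured 2.82 (2.52 to 3.12) in control cells and 3.28 (2.98 to 3.57) with Klf9-OE, from about 353 and 500.4 reads. The ratio was 1.16 (1.01 to 1.33), an interval that lay above 1, although the ranges of the libraries overlapped. With the Klf9-OE range widened as described below, the interval of the ratio was 0.984 to 1.37 and included 1.

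Il6st (chr13:112464070-112509327), the gp130 gene, differed the other way. It measured 34.3 (31.5 to 37.2) in control cells and 28.6 (26.3 to 30.9) with Klf9-OE, a ratio of 0.832 (0.742 to 0.934). The ranges missed each other narrowly, and 20.7% of expressed genes had a lower log2 fold change.

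Because Lifr and Il6st differed in opposite directions, their ratio within a library, which does not depend on how a library is scaled, differed more than either gene. Lifr stood at 0.246 (0.212 to 0.284) of Il6st in control cells and at 0.364 (0.330 to 0.403) with Klf9-OE. Osmr stood at 0.0822 (0.0718 to 0.0941) and 0.115 (0.102 to 0.129) of Il6st. Neither pair of intervals overlapped, and gp130 RNA exceeded that of both partner chains in both libraries. Like the other ratios within a library, these were picked after the values were seen. Their separation restates the differences of the single genes and is no independent result. How often other gene pairs stood apart was not examined. The intervals of ratios with Lifr, also when widened, are computed from its less certain ranges and share that limit. Lifr over Osmr was 2.99 (2.55 to 3.51) and 3.18 (2.85 to 3.54), where the intervals overlapped.

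**Figure D1:**
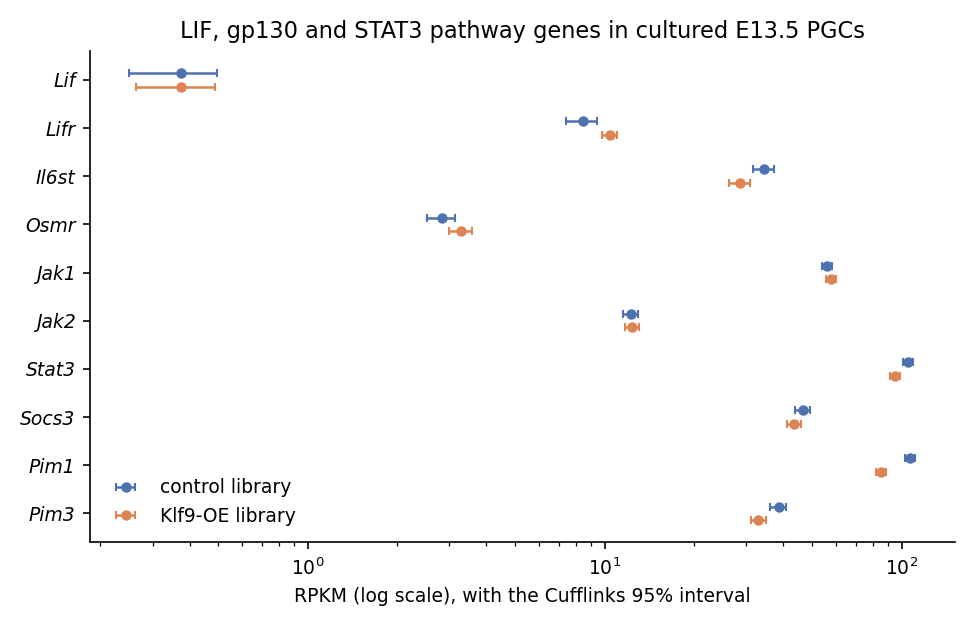
RPKM (log axis) of the 10 members in the control library (blue) and the Klf9-OE library (orange), with bars for the Cufflinks 95% interval. Control levels run from 0.373 for Lif to 107 for Pim1 in steps that are mostly wider than the differences between the libraries, except between Pim1 and Stat3 and between Pim3 and Il6st, which lie close together.

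The kinase genes had nearly the same level in both libraries. Jak1 (chr4:101151974-101265282) measured 56.3 (54.2 to 58.3) in control cells and 57.8 (55.7 to 60.0) with Klf9-OE, a ratio of 1.03 (0.976 to 1.08). Jak2 (chr19:29251803-29313080) measured 12.2 (11.5 to 13.0) in control cells and 12.4 (11.7 to 13.0) with Klf9-OE, a ratio of 1.01 (0.933 to 1.09). The ranges overlapped for both genes. Jak1 exceeded Jak2 by 4.60 (4.29 to 4.93) times in control cells and 4.68 (4.39 to 4.99) times with Klf9-OE.

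Stat3 (chr11:100886810-100939511), the transcription factor gene of the route, was strongly expressed, with 775 genes above it in control cells. It measured 105 (101 to 109) in control cells and 94.9 (91.3 to 98.5) with Klf9-OE, a ratio of 0.900 (0.853 to 0.950). The libraries stood apart, with a level 9.99% lower with Klf9-OE, the smallest difference of the 5 genes that did so, and 31.3% of expressed genes had a lower log2 fold change. Its implied read numbers, 2858 and 2730, did not follow the values within 10%.

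Socs3 (chr11:117966087-117969366), the feedback inhibitor whose promoter window holds the palindrome shown above, measured 46.5 (43.9 to 49.0) in control cells and 43.4 (41.1 to 45.7) with Klf9-OE. The ratio was 0.934 (0.866 to 1.01), and the ranges overlapped. Relative to Stat3 it stood at 0.441 (0.413 to 0.471) and 0.458 (0.429 to 0.488), which overlapped as well.

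Pim1 and Pim3 encode serine/threonine kinases that favour survival and growth. Pim1 (chr17:29490651-29496097) measured 107 (103 to 111) in control cells and 85.4 (82.0 to 88.8) with Klf9-OE. Its ratio of 0.797 (0.753 to 0.843) was the lowest of the 10 genes, and 16.9% of expressed genes had a lower log2 fold change. Pim3 (chr15:88862194-88865726) measured 38.5 (36.2 to 40.8) in control cells and 32.9 (31.0 to 34.8) with Klf9-OE, a ratio of 0.855 (0.786 to 0.930). Both kinase genes stood apart, though the ratio intervals of Pim3 and Socs3 overlap each other. Pim1 over Stat3 was 1.02 (0.962 to 1.07) in control cells and 0.900 (0.852 to 0.951) with Klf9-OE, intervals that did not overlap, and Pim3 over Stat3 was 0.365 (0.340 to 0.392) and 0.347 (0.324 to 0.372), which did.

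From highest to lowest, the control order was Pim1, Stat3, Jak1, Socs3, Pim3, Il6st, Jak2, Lifr, Osmr and Lif. Pim1 and Stat3 overlapped, as did Pim3 and Il6st, and the other neighbours in this order stood apart. With Klf9-OE, Stat3 came before Pim1, the rest of the order was the same, and all neighbours stood apart by the deposited ranges. With the Klf9-OE ranges widened as described next, Stat3 (from 89.8) overlapped Pim1 (to 90.2), and Pim3 (from 30.2) overlapped Il6st (to 31.8). The highest member exceeded the lowest by 287 times in control cells and 253 times with Klf9-OE.

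Scaling and read counting bear on these calls. When Klf9-OE values were multiplied by 1.04, which gives both libraries the same sum over named genes, Il6st, Stat3 and Pim3 overlapped and 2 members stood apart, Lifr (higher) and Pim1 (lower). Read numbers implied by the ranges, for genes with 1 to 9 such reads, were even for 89.0% of 1767 genes with Klf9-OE and for 36.4% of 2132 in control cells. If the Klf9-OE reads were counted in pairs, which was not tested, their ranges are too narrow. Widened by the square root of 2, they left 4 members apart, all but Il6st, whose upper limit became 31.8, and 12.0% of the genes that reached an RPKM of 10 were then higher and 20.3% lower. The widened intervals of Lifr over Il6st (0.316 to 0.420) and Osmr over Il6st (0.0968 to 0.136) still stood apart from control, and that of Pim1 over Stat3 (0.833 to 0.973) did not.

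**Figure D2:**
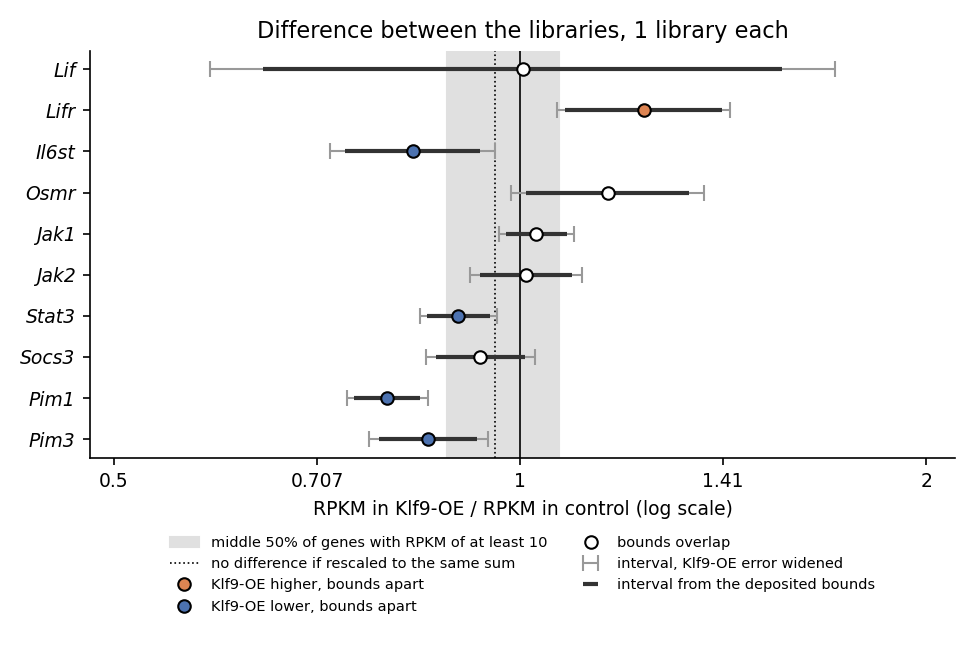
RPKM in Klf9-OE over RPKM in control (log axis) for the 10 members, with thick bars for intervals from the deposited ranges, thin bars for the widened ones, a grey band for the middle 50% of genes that reached an RPKM of 10 and a dotted line where no difference would lie after rescaling to the same sum. The thick bars of Pim1, at 0.797, Il6st, Stat3 and Pim3 lie left of the dotted line, and that of Lifr, at 1.23, lies right of 1.

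Of a wider list of 59 genes of the gp130, JAK and STAT network, 55 were found under their own symbol, 53 were above 0 and 47 were expressed. The libraries stood apart for 24, with 9 higher and 15 lower with Klf9-OE, of 53, beside 11.2% and 14.4% of all genes above 0, 14.8% and 20.2% of expressed genes and 14.9% and 23.9% of genes that reached an RPKM of 10. For some genes of this list named below, the implied read numbers did not follow the values within 10%, so their ranges are less certain. These genes were Stat4, Socs5, Pias2, Ptpn6, Sos1, Akt2, Myc, Bcl3, Mcl1, Bcl6 and Timp1. The median log2 fold change was -0.028.

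Among the other receptor chains of the family, 1 of 3 genes above 0 was lower, beside 14.4% of all genes above 0. Cntfr, the chain that binds CNTF and recruits gp130 and the LIF receptor chain, measured 15.0 (13.7 to 16.2) in control cells and 7.42 (6.60 to 8.23) with Klf9-OE, a ratio of 0.495. Il6ra and Il11ra1, which bind IL-6 and IL-11, overlapped, at 4.42 and 9.29 in control cells and 4.47 and 8.70 with Klf9-OE.

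The kinase gene Tyk2, a further JAK, was lower, at 17.7 (16.6 to 18.7) in control cells and 14.6 (13.7 to 15.5) with Klf9-OE. Of the 6 other STAT genes, 3 were lower and 1 was higher, beside 14.4% and 11.2% of all genes above 0. Stat5a, 1.64 kb from Stat3, was lower at 9.65 (8.96 to 10.3) against 6.03 (5.53 to 6.53), control first. Stat2, which acts in the interferon response, was lower at 15.5 (14.5 to 16.4) against 11.3 (10.6 to 12.0), while Stat6, the factor of IL-4 signalling, was higher at 2.13 (1.80 to 2.46) against 3.99 (3.58 to 4.41). Stat4 was lower but below an RPKM of 1, and overlapped once widened.

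Among 7 SOCS-family genes, Cish, a target of STAT5, was lower at 5.29 (4.66 to 5.92) against 3.16 (2.72 to 3.61), and Socs5, the highest of them, was higher at 20.5 (19.5 to 21.5) against 23.8 (22.7 to 25.0). Of 7 genes for PIAS proteins and phosphatases, Pias1 was lower with a ratio of 0.876 and overlapped after rescaling to the same sum. Ptpn6, the SHP1 phosphatase gene, was higher with a ratio of 1.18 and overlapped once widened. Pias2, the highest of that group, overlapped at 102 and 96.6. Each of these groups thus had 1 gene higher and 1 lower, beside 14.8% and 20.2% of expressed genes.

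In the branch through SHP2, MAPK and PI3K, 2 of 9 genes were lower and 1 was higher, beside 20.2% and 14.8% of expressed genes. Sos1, a RAS exchange factor, was lower with a ratio of 0.577, although its implied reads numbered 1426 and 2822, and Akt1, a kinase downstream of PI3K, had a ratio of 0.798. Pik3r1, a regulatory subunit of PI3K, was higher at 1.65 (1.44 to 1.85) against 2.30 (2.07 to 2.52). Akt2, the highest of the branch at 119 in control cells, was undetermined with Klf9-OE, at 93.6 (0 to 11366).

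Known STAT3 targets outside the core went both ways, with 4 of 13 higher and 6 lower, beside 14.8% and 20.2% of all expressed genes, which include 12 of the 13. Tfcp2l1 and Gbx2, which encode transcription factors of embryonic stem cells, were among the lower ones. Tfcp2l1 measured 15.4 (14.9 to 15.9) in control cells and 12.1 (11.7 to 12.5) with Klf9-OE, and Gbx2 measured 7.54 (6.78 to 8.29) in control cells and 4.92 (4.37 to 5.48) with Klf9-OE. Klf4 was lower with a ratio of 0.710 and Klf5 with a ratio of 0.827, the latter overlapping after rescaling to the same sum.

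Bcl2l1, which encodes the survival factor BCL-XL and was the highest of these targets in control cells, though below Mcl1 with Klf9-OE, was lower at 40.1 (38.0 to 42.1) against 33.4 (31.7 to 35.0), as was the repressor gene Bcl6 at 13.0 (12.1 to 13.9) against 10.03 (9.40 to 10.7). The higher targets were Bcl3, Junb, Timp1 and Mcl1. Bcl3, which encodes a factor of the IκB family, measured 12.9 (11.7 to 14.1) in control cells and 19.2 (17.6 to 20.8) with Klf9-OE. Junb, an AP-1 subunit, had a ratio of 1.31, Timp1, an inhibitor of metalloproteinases, one of 1.28, and Mcl1, a survival factor of the BCL2 family, one of 1.13 with implied reads of 2907 and 1471. Myc and Fos overlapped, with ratios of 1.15 and 1.01. With Socs3, Pim1 and Pim3, the measured targets of STAT3 had no single direction.

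**Figure D3:**
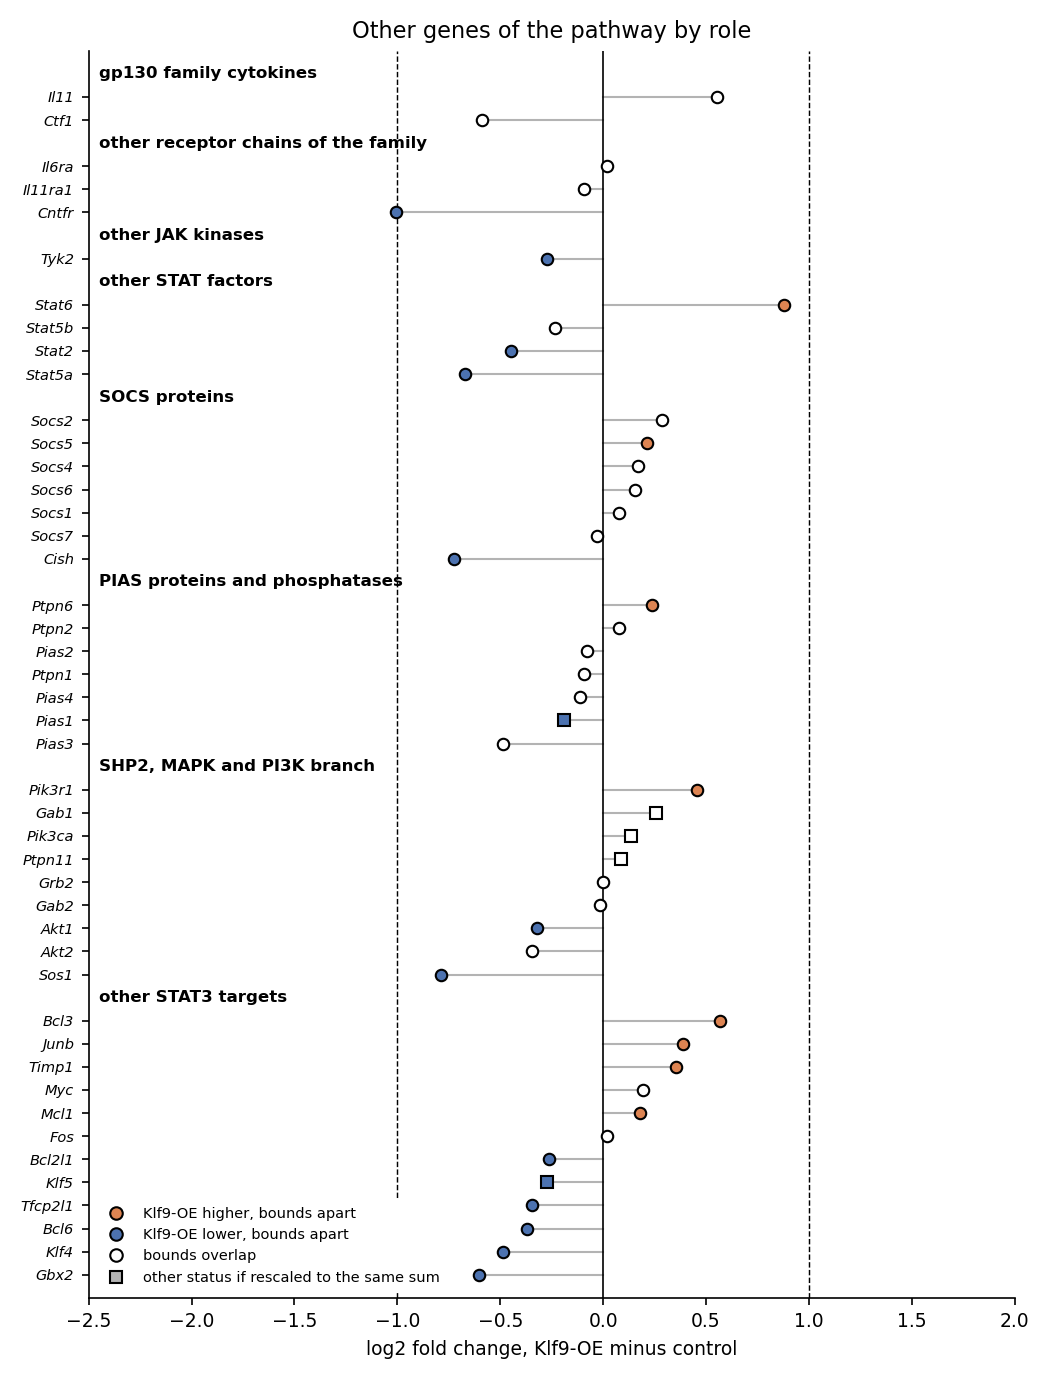
Log2 fold change (Klf9-OE minus control, log2 of RPKM plus 0.1) of 45 of the 47 expressed genes of the wider list by role, in orange where Klf9-OE was higher, blue where it was lower and white where ranges overlapped, with squares for genes whose status differs after rescaling to the same sum and dashed lines at a difference of 1 on the log2 scale. Cntfr lies at the lower dashed line, and STAT3 targets lie on both sides of 0.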

How the data were processed

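Total RNA from 1 control and 1 Klf9-OE culture was sequenced as 51-mer single-end reads. Per the submitters' processing notes and the study's methods, mapping to mm10 used TopHat2 with Bowtie, and Cufflinks gave the deposited FPKM values and their 95% limits, called RPKM here as in the study. Tool versions are not given in the sources used here. Transcript models were built for each library, so a gene can rest on different models.

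The genes and lists were chosen with earlier results of these data known, and the comparison with genes that reached an RPKM of 10 was added after the data were seen. Loci sharing a symbol were added up, and 6 symbols with a failed estimate were left out. Log2 fold changes used a pseudocount of 0.1. Reads behind a value were inferred from the distance of the upper limit, taken as 2 standard deviations of a Poisson count, and an inferred number counted as whole within 0.06. It was said to follow the values when its ratio between the libraries, over the ratio of the values and the median of that quotient over genes with 1 start, was within 10% of 1. Start coordinates were counted from 1. From the wider list, the text names expressed genes whose ranges do not overlap and the highest gene of each role, except 2 genes that are not reported here by name, and any other gene was named after its values were seen. Ratios within a library were also picked after the values were seen. Alternatives were pseudocounts of 0.01 and 1, a minimum RPKM of 1, values above 0 in both libraries, rescaling to the same upper quartile or sum, the highest locus of a symbol, widened Klf9-OE ranges and a ratio of 1.5. Read totals are not in the files, so depth shows only through the ranges. The overlap call, the log2 fold change and the inference of reads were run on simulated Poisson counts with known changes. The simulated ranges rest on the same Poisson assumption, so this checks the code and not whether the deposited ranges follow that assumption. Rescaling, widening, ratios within a library and motif searches were not simulated. Python 3.11.15, numpy 2.4.6, pandas 2.3.3 and matplotlib 3.10.9 were used.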

Additional observations from a re-analysis of the deposited data

How the results depend on the processing

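Rescaling to the same sum over named genes left 2 of the 5 members apart, Lifr and Pim1, and so did rescaling to the same sum over genes with an RPKM of at least 1 that are not small RNAs (2), an alternative chosen after seeing the data. These rescalings also turned the median log2 fold change of the members from -0.046 to 0.0091 and 0.01, and that of the wider list from -0.028 to 0.034 and 0.035. Both gave 25 genes of the wider list apart, 12 higher and 13 lower. The other alternatives that give such counts left 4 or 5 members and 21 to 24 genes of the wider list apart. No member differed by 2-fold under any alternative run, or by 1.5-fold. For single members, all 69 alternative log2 fold changes stayed within the error of estimation. Some of these could not move. Each member has 1 locus per library, so the highest locus gave the same value, as did the minimum RPKM for expressed members. The overlap calls of Il6st, Stat3 and Pim3 did change under the rescalings to the same sum. No paired analysis was possible because each condition has 1 library, and for the same reason none could be left out. Depth limits Lif, whose ratio is known only between 0.645 and 1.56.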

Other observations

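Some genes of the network share a locus with a neighbour in the files, so they entered no comparison. The joint locus of Clcf1, a cytokine gene of the gp130 family, and Pold4 measured 3.96 (3.17 to 4.75) in control cells and 10.4 (9.11 to 11.8) with Klf9-OE, and its reads are not divided between the genes. The joint locus of Cntf and Zfp91 measured 32.2 (30.6 to 33.9) and 32.8 (31.2 to 34.4), and that of Jak3 and Insl3 measured 2.77 (2.37 to 3.17) and 2.56 (2.21 to 2.91). Pim2, the remaining PIM kinase gene, was listed alone in control cells at 5.65 (4.98 to 6.33) and jointly with Otud5 with Klf9-OE at 52.9 (0 to 155), so these values cannot be set against each other.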
